A study of Mus musculus with 30 samples.

Results

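Transcripts of 10 acute-phase plasma proteins were followed in mouse liver: the serum amyloid A genes *Saa1*, *Saa2* and *Saa3*, the orosomucoid genes *Orm1*, *Orm2* and *Orm3*, *Lcn2* (lipocalin 2), *Hp* (haptoglobin), *Hpx* (hemopexin) and *Apcs* (serum amyloid P component). They were taken by name, as 10 of the 54429 genes counted in a circadian time course and, by Ensembl identifier, as 10 of the 55471 genes counted in a genotype experiment. They were selected on their measured levels at 6 months in the time course, so the differences between ages in that experiment are given as a description with no test. The time course had 18 poly(A) RNA-seq libraries of whole liver from wild-type male C57BL/6J mice aged 2, 6 or 12 months, with 1 library at each of ZT1, ZT5, ZT9, ZT13, ZT17 and ZT21 (zeitgeber time, hours after lights on). The genotype experiment had 12 libraries in 6 pairs, each pair a KO library from male mice with liver-specific deletion of *Egr-1* (floxed *Egr-1* crossed with *Alb*-Cre, a recombinase driven by the albumin promoter and hence active in hepatocytes) and a WT library from littermates. The KO line had been backcrossed to C57BL/6J, and all mice were kept on chow in a light/dark cycle. A pair was collected at the time of day when Egr-1 protein stood at its high (H) or low (L) point for the age: ZT13 and ZT17 at 2 months, ZT9 and ZT21 at 6 months, ZT5 and ZT21 at 12 months. The study's legends give several mice per group, but each age, time and genotype has 1 library here and how mice were assigned to libraries, singly or pooled, was not stated, so p-values measure only the spread between these libraries.

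The acute-phase response is the change in liver secretion that follows infection, injury or other inflammation. Interleukin-6 acts on hepatocytes through STAT3, interleukin-1 and TNF act through NF-kB, and C/EBP factors act with both, so that some plasma proteins rise steeply (serum amyloid A in mice), others rise moderately (haptoglobin, hemopexin, fibrinogen), and the negative acute-phase proteins, albumin among them, fall. Serum amyloid A travels on high-density lipoprotein, orosomucoids bind small lipophilic molecules, lipocalin 2 binds the siderophores with which bacteria take up iron, haptoglobin and hemopexin bind free hemoglobin and heme, and serum amyloid P component is the mouse pentraxin that behaves as an acute-phase reactant.

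All 10 are protein-coding genes (GENCODE M21, mm10). *Saa3* (chr7:46711998-46715700), *Saa1* (chr7:46740497-46742980) and *Saa2* (chr7:46751790-46754313) are neighbours, as are *Orm1* (chr4:63344560-63348163), *Orm3* (chr4:63356162-63359511) and *Orm2* (chr4:63362449-63365878). *Lcn2* lies at chr2:32384633-32388252, *Hp* at chr8:109575128-109579172, *Hpx* at chr7:105591613-105600137 and *Apcs* at chr1:172893961-172895041. The stretches upstream of *Saa1*, *Saa2*, *Orm2*, *Orm3* and *Apcs* are shown because near copies of one another moved by different amounts, and because *Apcs* alone carried another motif than the rest. Each runs from 250 to 51 bases before the RefSeq transcription start (GRCm38.p6, which shares coordinates with mm10), read 5′ to 3′ on the strand of the gene, and overlaps no annotated exon. Capitals mark a match to TTGCNNAA, a C/EBP-type motif, or in *Apcs* a match to TTCNNNGAA, a STAT-type motif.
Saa1, chr7:46743031-46743230, minus strand: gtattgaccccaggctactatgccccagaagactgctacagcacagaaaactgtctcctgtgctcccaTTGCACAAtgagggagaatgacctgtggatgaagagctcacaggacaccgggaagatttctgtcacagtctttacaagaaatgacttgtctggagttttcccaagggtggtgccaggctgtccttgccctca
Saa2, chr7:46751583-46751782, plus strand: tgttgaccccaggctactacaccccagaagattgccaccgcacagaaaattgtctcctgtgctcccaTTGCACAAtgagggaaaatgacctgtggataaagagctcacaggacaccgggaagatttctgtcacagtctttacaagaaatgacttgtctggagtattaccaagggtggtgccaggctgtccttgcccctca
Orm2, chr4:63362199-63362398, plus strand: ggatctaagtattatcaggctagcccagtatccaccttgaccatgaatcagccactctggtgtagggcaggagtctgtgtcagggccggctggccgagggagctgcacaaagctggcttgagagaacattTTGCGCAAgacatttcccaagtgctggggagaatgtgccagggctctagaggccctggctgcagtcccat
Orm3, chr4:63355908-63356107, plus strand: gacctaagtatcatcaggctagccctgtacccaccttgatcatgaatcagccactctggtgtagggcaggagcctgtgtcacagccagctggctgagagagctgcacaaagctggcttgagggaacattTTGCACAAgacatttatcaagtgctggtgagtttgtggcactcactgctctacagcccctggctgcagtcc
Apcs, chr1:172895105-172895304, minus strand: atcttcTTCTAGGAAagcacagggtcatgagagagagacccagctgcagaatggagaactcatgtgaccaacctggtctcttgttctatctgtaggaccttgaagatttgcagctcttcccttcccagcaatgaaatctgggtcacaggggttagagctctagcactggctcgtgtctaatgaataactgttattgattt

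Searched on both strands, TTGCNNAA was present in 7 of the 8 member windows that RefSeq promoter tables supplied (*Saa1*, *Saa2*, *Saa3*, *Orm2*, *Orm3*, *Hpx* and *Lcn2*, the last in a window that overlaps an exon) and in 8.11% of all 32851 gene windows of the same length. TTCNNNGAA was present in *Apcs* and in 5.76% of all windows. GGANTTTCC (NF-kB type, 0.868% of windows) and GCGNGGGCG (EGR type, 3.04%) were in none of the 8 member windows. A match says only that the letters are there. The *Saa1* and *Saa2* stretches were identical at 93.5% of aligned positions and those of *Orm2* and *Orm3* at 85.3%, whereas *Saa1* and *Saa3* shared 52.3%. In *Saa1* and *Saa2* the capitals lie at 182 to 175 and 183 to 176 bases before the start, and in *Orm2* and *Orm3* at 120 to 113 and 121 to 114.

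The libraries held 13375377 to 16557378 assigned counts in the time course and 13747706 to 21748956 in the genotype experiment. Levels are given as CPM, the count relative to the TMM-scaled library total, and the 2 tables were scaled separately. *Egr-1* was lower in the KO library of 4 of the 6 pairs. In the pair at 2 months L it was higher in the library labelled KO (7.43 against 1.45 CPM), and at 12 months H the values were 6.11 and 5.83 CPM, so these 2 pairs go against their labels or show no loss. At 2 months H the values were 1.99 CPM in KO and 2.57 CPM in WT, with overlapping counting intervals. In the pairs at 2 months H, 2 months L and 12 months H, *Egr-1* in WT was itself below the highest KO library (7.43 CPM). This limits how much loss could be seen there. Across the 6 pairs the *Egr-1* log2 fold change was −1.76 ± 0.79 (SE, adjusted p = 0.324, edgeR quasi-likelihood test with the pair as a block). Directions of KO against WT therefore rest on the labels. *Egr-1* in cells other than hepatocytes was not measured apart in these whole-liver libraries.

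*Saa1* and *Saa2*, the serum amyloid A proteins that hepatocytes secrete, were low in the young livers of the time course. Across the 6 libraries of 2 months *Saa1* stood at 80.3, 146 and 330 CPM (lowest, median, highest), across those of 6 months at 5246, 12186 and 22661 CPM, and across those of 12 months at 24.9, 70.2 and 1541 CPM. *Saa2* stood at 17.1, 22.9 and 39.6 CPM at 2 months, at 3079, 8411 and 17176 CPM at 6 months, and at 5.73, 25.6 and 538 CPM at 12 months. Every library of 6 months was above all 12 others for both genes, and the medians at 6 months were 83.4-fold (*Saa1*) and 367-fold (*Saa2*) those at 2 months. *Saa3*, the form made by macrophages and other cells as well as liver, went from 2.96, 4.17 and 5.68 CPM at 2 months to 86.8, 340.2 and 1013 CPM at 6 months, and was at 3.23, 6.32 and 19.3 CPM at 12 months. Its medians at 6 and 2 months differed 81.6-fold, and the 6-month libraries again stood clear of the rest.

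The orosomucoids, plasma carriers whose genes lie side by side on chromosome 4, started from very different levels. *Orm1*, the main gene, was at 784, 906 and 1014 CPM at 2 months, at 2186, 3655 and 5729 CPM at 6 months, and at 564, 699 and 1074 CPM at 12 months. *Orm2* was at 7.89, 9.40 and 16.2 CPM, then at 208.6, 631 and 811 CPM, and at 12 months at 2.18, 10.9 and 45.8 CPM. *Orm3* was at 5.54, 7.62 and 8.78 CPM, then at 9.84, 18.4 and 25.2 CPM, and at 12 months at 0.915, 2.13 and 4.94 CPM. The medians at 6 months were thus 4.04-fold those at 2 months for *Orm1*, 67.1-fold for *Orm2* and 2.41-fold for *Orm3*. *Orm3* was the member whose 6-month libraries came closest to the others, its lowest being 1.12-fold the highest library of another age. It was also the one member whose 12-month libraries lay wholly below those of 2 months, by −1.64 on the log2 scale.

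*Lcn2*, which withholds iron from bacteria, was low outside 6 months. It stood at 6.22, 9.06 and 10.5 CPM at 2 months, at 228.7, 783 and 2313 CPM at 6 months, and at 0.501, 4.49 and 15.0 CPM at 12 months. The lowest library of 6 months was 15.2-fold the highest of the other 12, the widest gap among the 10 genes. *Hp* and *Hpx*, the hemoglobin and heme binders, were already abundant in young liver. *Hp* went from 1583, 1707 and 1961 CPM at 2 months to 5686, 8305 and 14155 CPM at 6 months, and was at 1438, 1782 and 3295 CPM at 12 months. *Hpx* went from 4342, 4967 and 5481 CPM to 11632, 18460 and 29812 CPM, and was at 3244, 5007 and 6818 CPM at 12 months. Their medians at 6 months were 4.87-fold and 3.72-fold those at 2 months. *Apcs*, the pentraxin, was intermediate, at 100.1, 165 and 193 CPM at 2 months, 698, 1887 and 4265 CPM at 6 months and 137, 212 and 319 CPM at 12 months, a difference of 11.4-fold between the medians at 6 and 2 months.

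**Figure D1:**
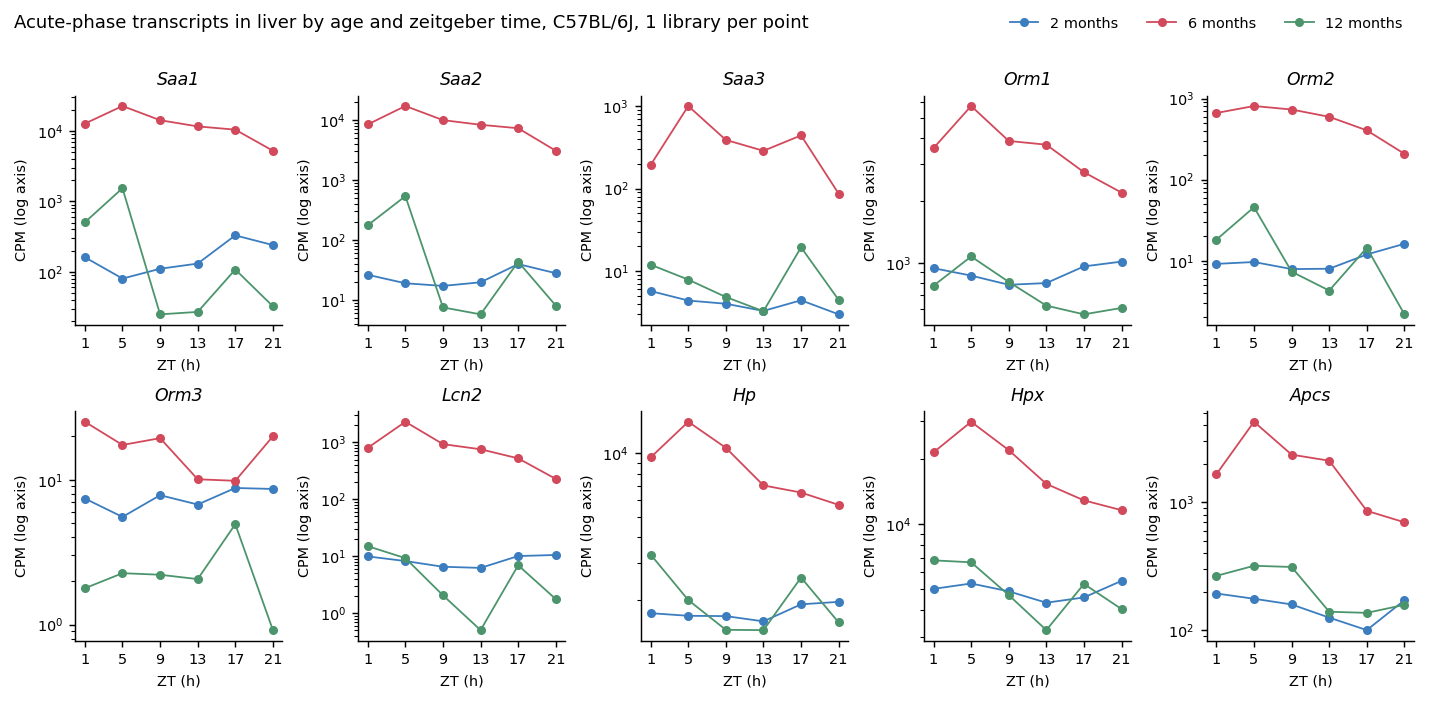
Level of each of the 10 genes in the time course, in CPM on a log axis, against zeitgeber time in hours; each point is 1 library and lines join the libraries of 2 months (blue), 6 months (red) and 12 months (green). The 6-month line lies above the other 2 at each time in all 10 panels, with its peak at ZT5 and its lowest point at ZT21 except for *Orm3*.

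Among the 6 libraries of 6 months, the one at ZT5 was the highest and the one at ZT21 the lowest for 9 of the 10 genes, while *Orm3* was highest at ZT1 and lowest at ZT17. At 12 months *Saa1* and *Saa2* were uneven: the libraries at ZT5 and ZT1 had 1541 and 506 CPM of *Saa1* and 538 and 176 CPM of *Saa2*, and the other 4 had at most 108 and 43.2 CPM. Expressed as the SD of log2(CPM + 0.5) over the 6 libraries of an age, *Saa2* at 12 months varied by 2.68, more than 99.98% of the 12470 genes compared. *Hp* and *Hpx* at 2 months varied by 0.12 and 0.13, less than most genes (10.8% had a smaller SD than *Hp*). With 1 library per time point, a time of day and a single library cannot be told apart here.

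Taken per kilobase of 1 GENCODE transcript per gene, to compare genes of different length, the order at 2 months ran from *Hpx* (median 3314 CPM per kb) through *Hp* (1269), *Orm1* (1168), *Saa1* (240), *Apcs* (170), *Saa2* (37.8), *Orm2* (12.1), *Lcn2* (9.91) and *Orm3* (9.86) to *Saa3* (7.51). At 6 months *Saa1* (20010 CPM per kb) and *Saa2* (13879) came first, ahead of *Hpx* (12315), *Hp* (6174), *Orm1* (4717), *Apcs* (1944), *Lcn2* (856), *Orm2* (814), *Saa3* (613) and *Orm3* (23.8). Neighbours in the 6-month order overlapped over their libraries except *Saa3* and *Orm3*. At 2 months the steps from *Hpx* to *Hp*, *Orm1* to *Saa1*, *Apcs* to *Saa2* and *Saa2* to *Orm2* were free of overlap. Together the 10 genes took 0.729% to 0.836% of all counts at 2 months, 2.80% to 9.72% at 6 months and 0.606% to 1.26% at 12 months. *Hpx* ranked 20 to 26 among all genes by count at 2 months and 2 to 10 at 6 months, and *Saa1* went from ranks 385 to 1499 to ranks 3 to 26.

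The proportion of near-identical copies changed too. *Saa2* made up 10.4% to 19.1% of the summed *Saa1* and *Saa2* counts at 2 months, 37.0% to 43.1% at 6 months and 17.5% to 28.6% at 12 months. The 3 ranges for 2, 6 and 12 months overlapped only between 2 and 12 months. *Orm2* made up 0.954% to 1.56% of the counts of the 3 orosomucoids at 2 months, 8.64% to 15.8% at 6 months and 0.358% to 4.08% at 12 months. These shares rest on how reads were divided between copies. The *Saa1* and *Saa2* transcripts are identical at 93.9% of aligned positions and those of *Orm1* and *Orm2* at 91.0%, and 14.8% of the 50-base stretches of *Saa1*, 20.4% of those of *Orm1* and 22.7% of those of *Orm2* occur in another transcript. For *Orm3* it was 3.59%, with 26 stretches shared with *Orm2* and 16 with *Orm1*. Single values of these genes are uncertain, and the percentages do not bound the error of a minor copy. At 2 months the median of *Orm1* was 906 CPM and that of *Orm2* 9.40 CPM. *Lcn2*, *Hp*, *Hpx* and *Apcs* share no 50-base stretch with another transcript. In the genotype experiment the *Saa2* share was 24.1% to 34.5% in WT and 23.6% to 33.8% in KO.

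**Figure D2:**
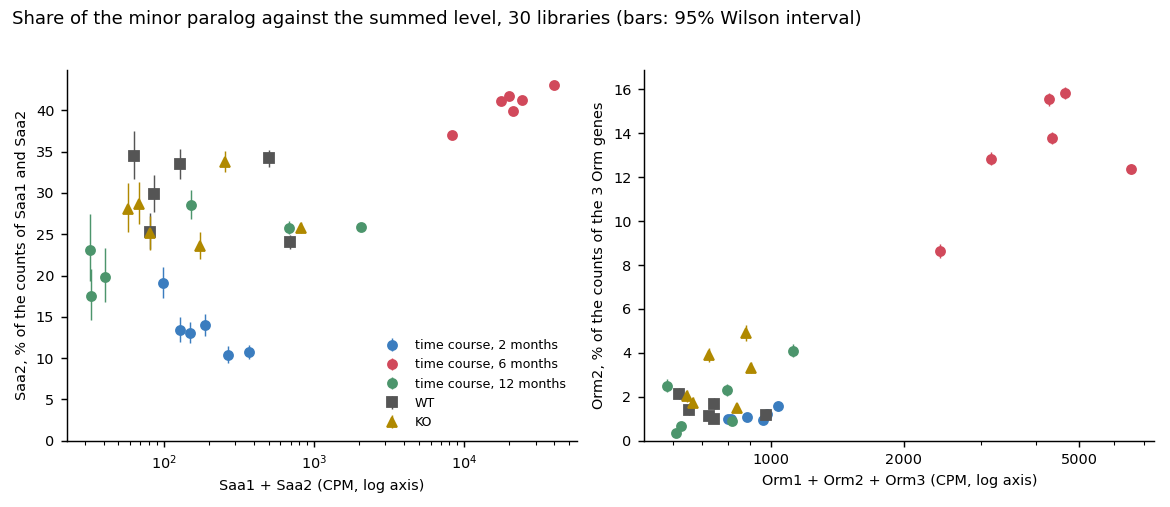
Share of *Saa2* in the summed *Saa1* and *Saa2* counts (left) and of *Orm2* in the counts of the 3 orosomucoids (right), in percent, against the summed level in CPM on a log axis, for all 30 libraries with 95% Wilson intervals that cover counting error only. The 6-month libraries of the time course form a group of their own, at 37.0% to 43.1% on the left and 8.64% to 15.8% on the right.

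The genotype experiment held mice of the same 3 ages. The 10 genes were selected on their levels in the time course, though earlier results of these data were known when they were chosen. In the WT library of 6 months collected at ZT9 *Saa2* was at 26.0 CPM, and in the time course library of that age and time it was at 9985 CPM, a ratio of 384. At ZT21 the values were 172 and 3079 CPM, a ratio of 17.9. For *Lcn2* the ratios at the same 2 times were 174 and 10.7, for *Orm2* 98.6 and 16.8, for *Saa3* 78.4 and 18.1, and for *Apcs* 23.5 and 9.72. *Hpx* was 7.24-fold and 3.43-fold, *Orm1* 5.31-fold and 3.01-fold, *Hp* 5.39-fold and 1.79-fold, and *Orm3* 4.76-fold and 3.65-fold higher in the time course. Every member was therefore higher in both 6-month libraries of the time course than in the WT library of the same age and ZT. At 2 months the ratios lay between 0.238 and 3.27. At 12 months and ZT5 *Saa1* (18.1-fold) and *Saa2* (12.6-fold) were higher in the time course, whereas *Orm3* had a ratio of 0.239. At 12 months and ZT21 the ratios were 0.782 for *Saa1*, 0.367 for *Saa2*, 0.242 for *Orm2* and 0.478 for *Lcn2*. The experiments differed in mouse line and were scaled apart, each value is 1 library, and these differences have no test.

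**Figure D3:**
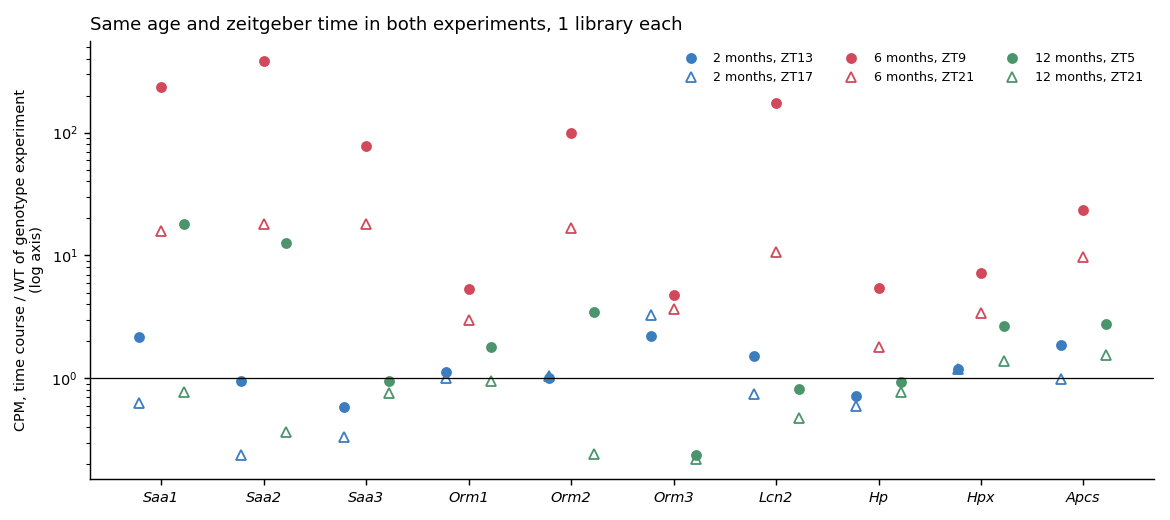
Ratio of the CPM in the time course to the CPM in the WT library of the genotype experiment at the same age and zeitgeber time, on a log axis, for each of the 10 genes; each point compares 1 library with 1 library. The points of 6 months lie above 1 for all 10 genes, up to 384 for *Saa2* at ZT9, while the points of 2 months lie between 0.238 and 3.27.

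Within the genotype experiment the 4 libraries of 6 months overlapped the 4 of 2 months for each of the 10 genes. *Saa2* ran from 19.7 to 212 CPM at 6 months and from 20.2 to 166 CPM at 2 months, and *Lcn2* from 5.16 to 29.1 and from 4.07 to 34.5 CPM. With genotype and collection point in the fit, edgeR called 0 of 10 members at 6 against 2 months, against 2.61% of all genes tested. None had an unadjusted p under 0.05, and DESeq2 also called 0. The log2 fold changes ran from −0.37 ± 0.34 (SE) for *Saa3* to 0.84 ± 0.96 for *Saa2*, where the description of the time course gave 6.38 and 8.22 for the same genes. At 12 against 2 months edgeR called 0 of 10 members, against 11.7% of all genes, while 3 had an unadjusted p under 0.05 and DESeq2 called 2. *Orm1* had a log2 fold change of −0.35 ± 0.12 (adjusted p = 0.0868), *Hpx* of −0.35 ± 0.12 (adjusted p = 0.0884), both called by DESeq2, and *Orm3* of 0.78 ± 0.33 (adjusted p = 0.160). The value of *Orm3* in the time course had the opposite sign. The SE of *Saa1* and *Saa2* in these comparisons was about as large as a whole log2 unit, so that moderate changes with age were not detectable.

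The KO and WT libraries were compared in pairs. *Orm3*, the least abundant orosomucoid, was higher in the KO library of 6 of 6 pairs, at 3.04 and 4.95 CPM (WT, then KO) at 2 months H, 2.68 and 11.5 at 2 months L, 4.08 and 8.04 at 6 months H, 5.47 and 9.50 at 6 months L, 9.47 and 12.3 at 12 months H, and 4.12 and 8.51 at 12 months L. These values rest on 39 to 251 counts per library, and as groups WT and KO overlapped. The log2 fold change was 0.96 ± 0.19 (SE, adjusted p = 0.0396, edgeR with the pair as a block), which made *Orm3* the 1 of 10 members called, against 1.36% of all genes. The call did not hold when any one pair other than 2 months L was left out (adjusted p 0.0570 to 0.118), though the log2 fold change stayed at 0.95 to 1.10. It did not hold without the pair as a block either (0.91 ± 0.29, adjusted p = 0.296), or without the 2 pairs whose *Egr-1* was not lower in KO (0.88 ± 0.15, adjusted p = 0.0988). The latter fit kept the pair at 2 months H, whose counting intervals for *Egr-1* overlapped. *Orm2* was also higher in KO in 6 of 6 pairs, from 1.05-fold at 6 months L to 4.02-fold at 6 months H, with a log2 fold change of 1.02 ± 0.24 and an adjusted p of 0.0765. DESeq2 gave *Orm2* an adjusted p of 0.0486. *Orm1*, which shares sequence with *Orm2*, had a log2 fold change of 0.03 ± 0.08 (adjusted p = 0.909).

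*Saa1* and *Saa2* differed between the libraries of a pair by as much as between pairs, in both directions. The KO to WT ratio of *Saa2* was 0.988 at 2 months H, 0.247 at 2 months L, 8.16 at 6 months H, 0.115 at 6 months L, 2.01 at 12 months H and 0.741 at 12 months L. The log2 fold change over the pairs was −0.29 ± 0.70 for *Saa2* and −0.13 ± 0.69 for *Saa1*, and neither passed the test (adjusted p 0.892 and 0.950). *Lcn2* was higher in KO in 5 of 6 pairs, with 0.73 ± 0.45 (adjusted p = 0.487). *Apcs* was lower in KO in 5 of 6 pairs and *Hpx* in 4 of 6, with −0.21 ± 0.12 and −0.17 ± 0.10 (adjusted p 0.421 and 0.435). *Saa3* was higher in KO in 4 of 6 pairs (0.23 ± 0.17) and *Hp* in 3 of 6 (0.0028 ± 0.16), and neither was called. Whether the genotype difference itself varied with age was tested for each member, and edgeR called 0 of 10, against 0.0135% of all genes. *Saa3* alone had an unadjusted p under 0.05 (edgeR p of 0.0400, 1 after adjustment), and DESeq2 called 0.

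**Figure D4:**
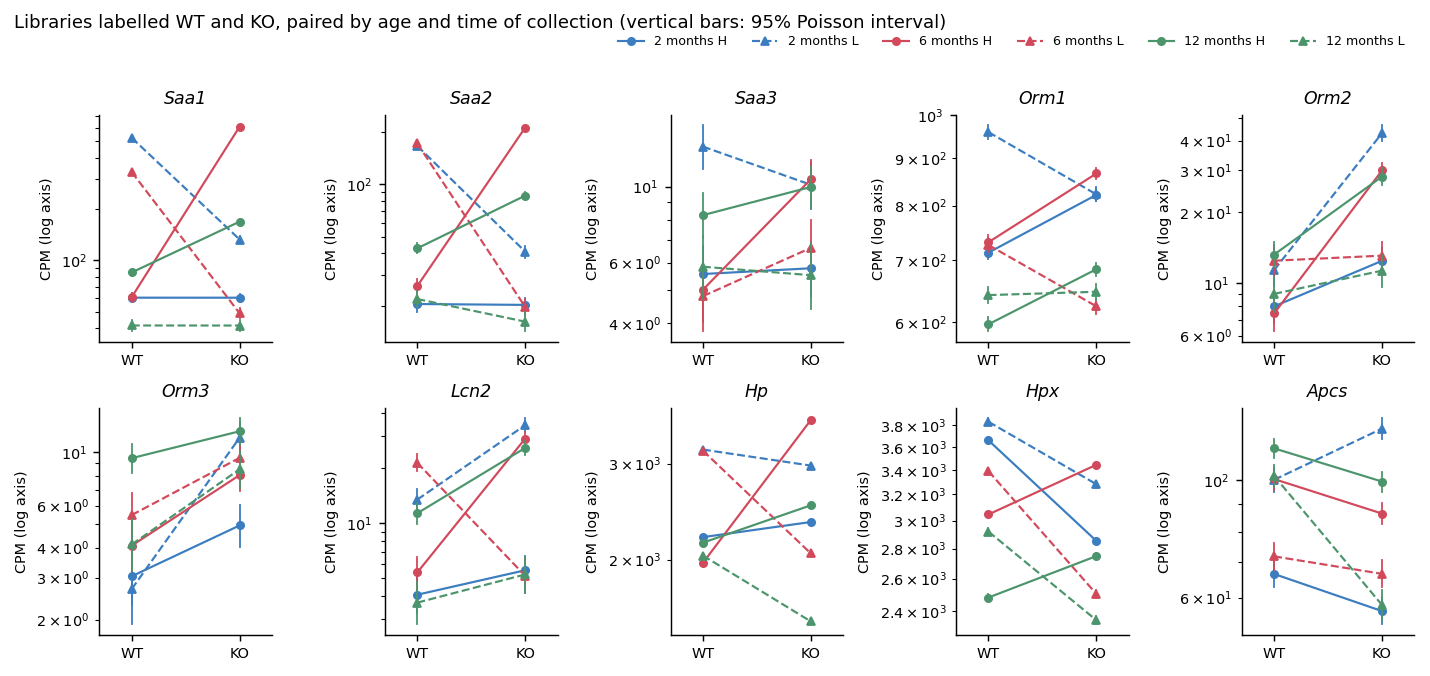
Level of each gene in CPM in the WT and KO library of each of the 6 pairs, joined by a line, with 95% Poisson intervals that cover counting error only; solid lines with circles are pairs collected at H, dashed lines with triangles those at L. *Orm3* and *Orm2* are higher in the KO library of 6 of 6 pairs, whereas the lines of *Saa1* and *Saa2* cross, with ratios for *Saa2* from 0.115 to 8.16.

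A 24-h curve common to the 3 ages was fitted to the 18 time course libraries, with age in the fit. edgeR called 2 of 10 members, against 15.8% of all genes tested. *Apcs* had an amplitude of 0.70 on the log2 scale with its peak at ZT5.66 (adjusted p = 0.00282), and *Hpx* an amplitude of 0.34 with its peak at ZT4.08 (adjusted p = 0.0361). *Apcs* kept its call in 23 of 24 alternatives and lost it without the 12-month libraries (adjusted p = 0.0628), and *Hpx* kept its call in 12 of 24. *Orm1* peaked at ZT5.42 and missed the threshold (adjusted p = 0.0835), though DESeq2 called it. *Saa1* and *Saa2* had larger fitted amplitudes, 0.81 and 0.89, and did not pass (adjusted p 0.392 and 0.299).

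The other genes of the response were read from 3 lists. These lists were chosen with earlier results of these data known. Their calls at 6 against 2 months in the time course are therefore a description and no independent support. Of 30 further acute-phase plasma proteins and responders, 21 were higher at 6 than at 2 months in the time course and none was lower (edgeR with ZT as a block, 13.6% of all genes called), with a median log2 fold change of 1.11 against 0.0052 over all genes. They included the metallothioneins *Mt2* (6.64 ± 0.37) and *Mt1* (5.34 ± 0.47), which bind zinc, the secreted hepatocyte protein *Fgl1* (2.84 ± 0.25), the interleukin-1 receptor antagonist *Il1rn* (2.69 ± 0.50), the metalloreductase *Steap4* (2.39 ± 0.37) and the protease inhibitor *Serpina3n* (2.16 ± 0.32). In the genotype experiment 1 of the 30 passed at 6 against 2 months, against 2.61% of all genes: *Vnn1*, a pantetheinase, by 1.19 ± 0.24. There 6 of the 30 had an unadjusted p under 0.05 (edgeR), and DESeq2 called 2. Of 26 measured genes of interleukin-6, interleukin-1 and TNF signalling, 12 were higher and 3 lower at 6 months in the time course, with a median of 0.45. The feedback inhibitor *Socs3* (2.61 ± 0.41), the cytokine *Il1b* (1.55 ± 0.24), the transcription factor *Junb* (1.49 ± 0.19), the receptors *Osmr* (1.44 ± 0.28) and *Il1r1* (1.25 ± 0.32) and the inhibitor *Irak3* (1.14 ± 0.36) rose. *Il6* itself reached at most 3 counts in any library of the time course. Of 10 negative acute-phase proteins 2 fell slightly, the retinol carrier *Rbp4* and the growth factor *Igf1*, each with a log2 fold change of −0.34 (SE 0.11 and 0.09). In the genotype experiment edgeR called none of the signalling genes or negative proteins at 6 against 2 months, with 6 and 3 at an unadjusted p under 0.05 and 1 each called by DESeq2.

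Between KO and WT, 4 of the 30 further acute-phase genes passed, against 1.36% of all genes, and all were lower in KO: *Serpina1e*, an antitrypsin (−2.28 ± 0.42), and the 3 fibrinogen chains *Fgb* (−0.48 ± 0.07), *Fgg* (−0.41 ± 0.08) and *Fga* (−0.39 ± 0.08). Of the negative proteins 3 of 10 were lower in KO, *Alb* (−0.89 ± 0.10), the lipoprotein *Apoa1* (−0.77 ± 0.09) and the vitamin D carrier *Gc* (−0.39 ± 0.07), and of the signalling genes 1 of 26, the co-receptor *Il1rap* (−0.38 ± 0.07). The secreted proteins that were lower in KO thus belonged to the positive as well as the negative group, whereas the called member, *Orm3*, was higher. *Serpina1e*, *Fgg*, *Fga*, *Gc* and *Il1rap* had an adjusted p of 0.0373 to 0.0396 (edgeR). Over all genes, 202 calls became 21 without the pair as a block and 2 with the pairs at H alone. Without the 2 pairs whose *Egr-1* was not lower in KO, 9 genes were called. At H alone at most 2 of the listed genes can have kept their call. Which genes kept it in these settings is not given here. Of 6 hepatocyte markers 2 were lower in KO, *Alb* and *Apob* (−0.39 ± 0.07), and the other 4 were not called. *Alb* itself was at 52419 to 66783 CPM in WT and 26339 to 36312 CPM in KO, whereas the other 5 markers summed to 11674 to 15564 CPM in WT and 10438 to 17856 CPM in KO.

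**Figure D5:**
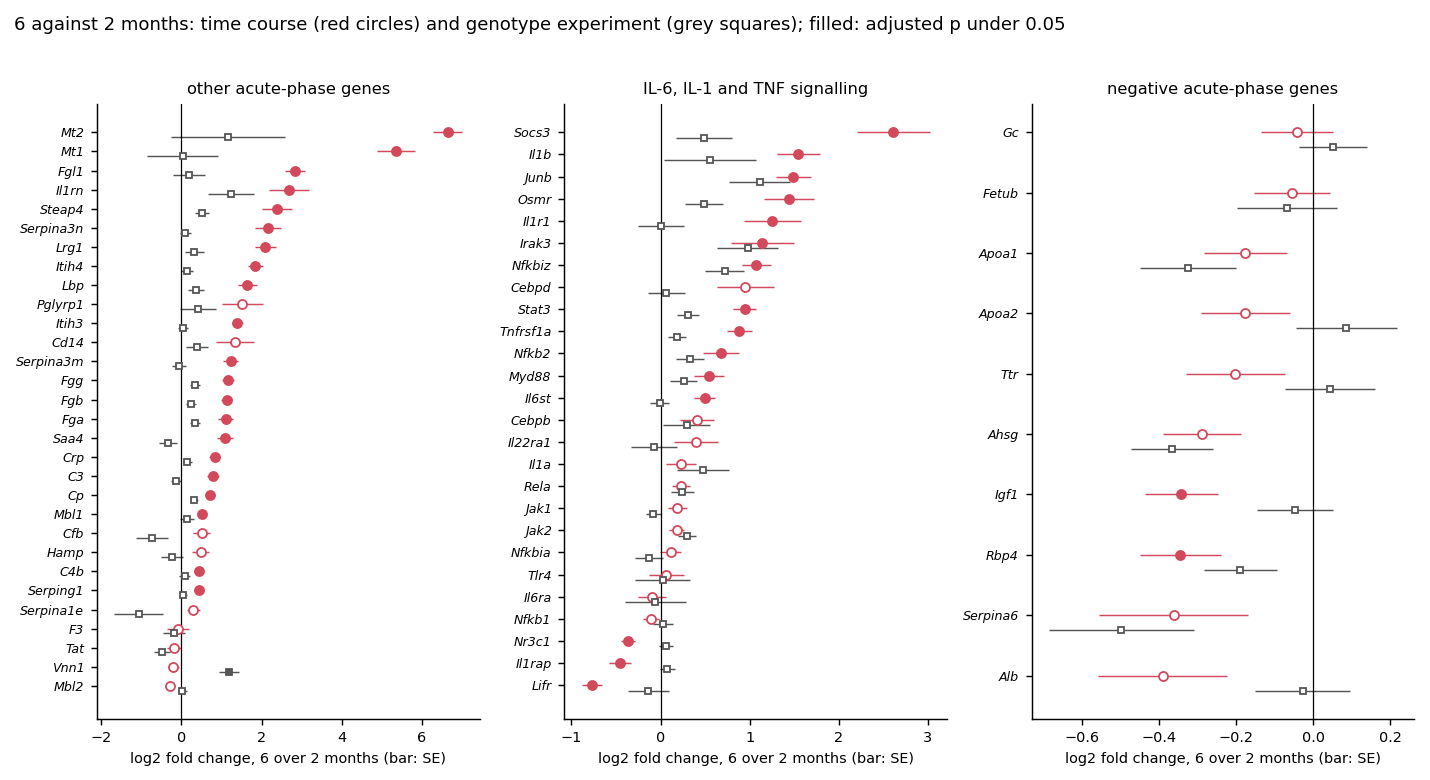
Log2 fold change at 6 over 2 months with its SE for the genes of the 3 lists, in the time course (red circles) and in the genotype experiment (grey squares). Filled symbols have an adjusted p under 0.05 (edgeR). In the time course 21 of 30 further acute-phase genes lie above 0 with filled symbols, and in the genotype experiment 1 of 30. The shares of all genes called were 13.6% and 2.61%.

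Markers of some other cells moved with age in the time course. At 6 against 2 months edgeR called 0 of 4 T and NK cell markers tested, 0 of 5 B cell markers and 0 of 1 pancreas marker. It called 1 of 5 endothelial and 1 of 5 erythroid markers higher, and 1 of 5 stellate and fibroblast markers lower. The share over all genes was 13.6%, and no adipocyte marker had enough counts to test. Of 12 neutrophil markers 6 had enough counts to test and 6 were higher at 6 than at 2 months, led by *S100a9* (4.13 ± 0.30) and *S100a8* (3.89 ± 0.34). The 12 summed to 3.85 to 8.51 CPM at 2 months, 27.1 to 154 CPM at 6 months and 5.56 to 13.9 CPM at 12 months, so the 6-month libraries stood apart on this list as they did on the 10 members. The other 6 neutrophil markers were too low to test: at 6 months *Ngp* reached 45 counts, *Ltf* 27 and *Camp* 18, each in the library at ZT5, and *Elane* reached 8, *Ly6g* 7 and *Mpo* 1. Of 5 monocyte markers 3 were higher, among them *Chil3* (2.78 ± 0.41) and *F13a1* (2.08 ± 0.38), and the list summed to 17.6 to 26.8 CPM at 2 months and 24.4 to 39.4 CPM at 6 months. Of 4 cholangiocyte markers tested 3 were higher, *Spp1* (1.56 ± 0.28), *Krt19* (1.09 ± 0.29) and *Krt7* (1.09 ± 0.32), and the list summed to 29.7 to 46.6 CPM at 2 months and 37.5 to 145 CPM at 6 months. Of 10 macrophage markers 6 were higher, and the list summed to 555 to 632 CPM at 2 months, 613 to 866 CPM at 6 months and 442 to 682 CPM at 12 months. Hepatocyte markers summed to 82277 to 100396, 47394 to 97921 and 85991 to 120199 CPM at the 3 ages, and 2 of 6 were lower at 6 than at 2 months. The part of these cells in the levels of the members was not tested, and in whole tissue more cells of a type and more RNA per cell cannot be told apart. In the genotype experiment the highest neutrophil sums were 41.9 CPM in KO at 2 months L and 31.2 CPM in WT at 6 months H. Without these 2 pairs, an alternative with fewer libraries, *Orm3* had a log2 fold change of 0.71 ± 0.15 (adjusted p = 0.143) and the genes called over the whole table went from 202 to 11.

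Libraries of the genotype experiment with more *Saa2* also had more of some other members. The permutations shuffled the 12 libraries freely, without regard to pair, age, genotype or collection point. Their p-values therefore treat the libraries as independent. Over the 12 libraries, on log2(CPM + 0.5), *Saa2* and *Saa1* had a Pearson r of 0.98 (permutation p = 2e-05, adjusted over 9 relations 0.00018, Spearman rho 0.94), though their transcripts share sequence. *Hp* followed with r = 0.87 (permutation p = 0.00031, adjusted 0.00139, rho 0.79, permutation p = 0.00341) and *Lcn2* with r = 0.79 (permutation p = 0.00321, adjusted 0.00963, rho 0.73, permutation p = 0.00852). Without the libraries farthest from the median *Saa2* level, KO at 6 months H and WT at 6 months L, the values were 0.97, 0.77 and 0.71 for *Saa1*, *Hp* and *Lcn2*. Within WT and within KO *Hp* gave 0.96 and 0.83 and *Lcn2* 0.93 and 0.82. The other 6 members missed the adjusted threshold, from r = 0.58 for *Saa3* (adjusted permutation p = 0.101) to 0.02 for *Orm3* (0.948). Some of these moved with the libraries used: without the same pair of libraries *Saa3* had r = 0.91, and *Orm2*, at 0.44 over all 12, had 0.72 within WT and 0.73 within KO.

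Over all 12229 genes with enough counts in both experiments, likeness to *Saa2* was taken as the mean of Pearson's r in the 18 and in the 12 libraries, as a description in which age and library are shared. Among the members *Saa1* (0.98), *Hp* (0.91) and *Lcn2* (0.88) came first and *Orm3* (0.35) last. The 10 other genes most like *Saa2* were *Fgl1* (0.88), *Lbp* (0.83), *Cyb561* (0.83), *Itih4* (0.82), *Lrg1* (0.81), *Icam1* (0.75), *Cpne8* (0.74), *C4b* (0.74), *Tmem176b* (0.72) and *Slc41a2* (0.72). Of these, 5 belonged to the list of further acute-phase genes: *Fgl1*, *Lbp*, which binds lipopolysaccharide, *Itih4*, *Lrg1* and the complement component *C4b*.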

How the data were processed

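Poly(A) RNA was sequenced from 30 mouse liver libraries, 18 in the time course and 12 in the genotype experiment. According to the submitters' processing notes the reads were trimmed with fastp, aligned to mm10 with HISAT2 and assigned to genes with featureCounts. Versions, annotation, strand setting and treatment of reads with several matches were not given in the sources used here. The values deposited by the authors are raw counts per gene, 1 column per library, and every column was used. Total counts per library were 13375377 to 16557378 and 13747706 to 21748956, and the intervals and shares cover counting error only. Genes were matched to GENCODE M21 for lengths and symbols (53775 genes of the time course, 55144 of the genotype experiment), and upstream sequences came from RefSeq tables of GRCm38.p6, which held 8 of the 10 genes.

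Counts were filtered with filterByExpr, scaled by TMM and tested with the edgeR 4.0.16 quasi-likelihood F-test in R 4.3.3, with Benjamini-Hochberg adjustment over all genes tested and a threshold of 0.05. The block was the pair for genotype and ZT for age in the time course. Age in the genotype experiment was fitted with genotype and collection point, and the rhythm as a cosine and sine of 24 h with age. Correlations used 100000 permutations, two-sided (scipy 1.17.1). Alternatives were DESeq2 1.42.0, no TMM, no filter, other covariates and leaving out libraries. The tests were also run on simulated counts with the same dispersion for every gene and no block effects. That setting does not show how the tests behave at the spread of *Saa1* and *Saa2*. All groups came from the sample labels. The same age and collection point put a WT and a KO library in a pair; deviations from the group means correlated by 0.0606 to 0.645 within the 6 pairs. Whether the libraries of a pair shared a litter or batch was not stated.

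The members and lists were chosen with earlier results of these data known. The text names all 10 members, *Egr-1*, up to 6 called genes with the largest change per list and comparison, and the 10 genes most like *Saa2* with a mean CPM of 1 or more in each experiment. The lists were further acute-phase proteins (30 genes), interleukin-6, interleukin-1 and TNF signalling (30), negative acute-phase proteins (10), and markers of cell types. The cell types were hepatocytes, neutrophils, monocytes, macrophages, T and NK cells, B cells, and endothelial, stellate, cholangiocyte, erythroid, adipocyte and pancreas cells.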

Additional observations from a re-analysis of the deposited data

How the results depend on the processing

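For KO against WT, 1 member was called and the alternatives called 0 to 2. DESeq2, library totals without TMM and no filter on low counts each called 2, *Orm3* and *Orm2*. No block for the pair, the 3 pairs at H alone, the 3 pairs at L alone, and 2 alternatives chosen after seeing the data (without the pairs at 2 months L and 12 months H, and without those at 2 months L and 6 months H) each called 0, and leaving out 1 pair at a time called 0 to 1. At 12 against 2 months in the genotype experiment DESeq2 called 2 members where edgeR called 0, and leaving out 1 library called 0 to 1. Of the 2 members with a 24-h rhythm, 1 was called with library totals without TMM, 1 without the 6-month libraries and 0 without the 12-month libraries, and leaving out 1 library called 1 to 3. Of the 30 further acute-phase genes 3 were called at 12 against 2 months in the time course, 7 with no filter and 1 with no ZT block, and leaving out 1 ZT called 2 to 5. The 21 called at 6 against 2 months stayed within 20 to 22 when 1 ZT was left out.

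Of the members without a call for genotype, *Orm2*, *Hpx* and *Apcs* kept their sign in all 14 alternatives. Their log2 fold changes ran from 0.55 to 1.25, −0.34 to −0.015 and −0.34 to −0.090. The others without a call, *Saa1*, *Saa2*, *Saa3*, *Orm1*, *Lcn2* and *Hp*, changed sign between settings. At H alone *Saa1* had a log2 fold change of 1.40 and *Saa2* of 1.35. At L alone *Hp* had −0.39, *Orm1* −0.16, *Lcn2* −0.038 and *Saa3* −0.028. Without the pairs at 2 months L and 12 months H *Hp* had −0.021 and *Saa1* 0.085, and without those at 2 months L and 6 months H *Hp* had −0.17. Leaving out 1 pair gave −0.16 to 0.13 for *Hp*, −0.0038 to 0.090 for *Orm1*, −0.73 to 0.41 for *Saa1* and −0.91 to 0.29 for *Saa2*. For 6 against 2 months in the genotype experiment, leaving out 1 library gave −0.30 to 0.22 for *Apcs*, −0.19 to 0.16 for *Hp*, −0.62 to 0.92 for *Lcn2*, −0.48 to 0.40 for *Orm2* and −0.56 to 1.73 for *Saa1*. For 12 against 2 months it gave −0.11 to 0.42 for *Apcs*, −0.73 to 0.45 for *Lcn2*, −0.46 to 0.39 for *Orm2*, −1.89 to 0.016 for *Saa1*, −1.17 to 0.62 for *Saa2* and −0.48 to 0.18 for *Saa3*.

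Counts over all genes moved as well. The 202 genes called for genotype became 430 with DESeq2, 422 without TMM, 636 with no filter, 21 without the block, 2 at H alone, 54 at L alone, 9 and 11 in the 2 added alternatives, and 45 to 137 with 1 pair left out. The 2 called for genotype by age became 9, 1 and 100 with DESeq2, without TMM and with no filter, and 0 to 6 with 1 pair left out. At 6 against 2 months in the genotype experiment 375 became 804 with DESeq2, 763 without collection point and 54 to 397 with 1 library left out, and at 12 against 2 months 1679 became 865 to 1745. The rhythm count of 2167 became 754 without the 2-month and 1149 without the 12-month libraries. In the time course 1892 genes at 6 months became 1059 with no ZT block and 1196 to 1597 with 1 ZT left out, and 1626 at 12 months became 997 and 955 to 1357. The causes were not tested. With 1 library per age, time and genotype, no comparison has a replicate of its own cell, and counts of *Orm3* and *Lcn2* below 100 in some libraries limit their precision.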

Other observations

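Of the 66 genes tested on the 3 lists, 7 (10.6%) passed the edgeR test at 12 against 2 months in the time course and 15 (22.7%) in the genotype experiment, where 11.7% of all genes passed in each, so the time course share was not above that of all genes. Of these, 4 genes passed in both experiments, each with the same sign. The share of all genes that passed in both is not given here, and the lists were chosen with earlier results of these data known. The overlap is therefore a description only. *Saa4*, the serum amyloid A that is made in liver without stimulus, had log2 fold changes of −1.01 ± 0.19 (SE) in the time course and −1.05 ± 0.23 in the genotype experiment. *Vnn1*, a pantetheinase, had 0.62 ± 0.14 and 1.46 ± 0.25. *Lifr*, a receptor of the interleukin-6 family, had −1.26 ± 0.12 and −1.14 ± 0.23, and *Ahsg*, the negative acute-phase protein fetuin-A, had −0.51 ± 0.10 and −0.97 ± 0.11.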
